A study of Mus musculus with 9 samples.

Results

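The genes described here are the chemokines, interleukins and interleukin receptors of 3 mouse mammary tumour models. They were taken by symbol from the deposited gene counts: CC, CXC and CX3C chemokines, interleukins, interleukin receptor chains, and *Csf1*, *Csf2*, *Csf3*, *Lif* and *Tnf*. *Il1r1*, *Il1rl1*, *Il18r1* and *Il18rap* were set aside by the same rule. The rule found 70 of the 14108 listed genes, of which 45 encode ligands, the receptor antagonist *Il1rn* included, and 25 encode receptor chains. Each table lists only genes whose third-highest count over the 9 tumours was at least 7, and all 70 were among the 14086 of them that passed the filter of the test on low counts. In 14 of them no group mean reached 1 CPM (counts scaled to library size by TMM), and 17 were at 10 CPM or more in every group mean.

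The tumours were HR1, LM1 and LM9, with 3 replicates each. HR1 is a non-metastatic line from a mammary tumour of a transgenic mouse that expressed mutant *PIK3CA* under the CAG promoter. LM1 and LM9 were each grown from a lung metastasis that formed after *piggyBac* transposon mutagenesis of HR1, so each stands for a selected line with its own insertions, and line and metastatic behaviour cannot be told apart. Into the mammary fat pad of female NOD/SCID hosts (NOD.CB17-Prkcd<scid>/J) aged 4 to 8 weeks, 250000 cells were injected in Matrigel and PBS, and GFP+ cells were sorted from tumours taken before 1500 mm3. Such hosts lack functional T and B cells and keep myeloid cells.

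Chemokines are small secreted proteins that direct leukocyte movement through G-protein-coupled receptors. CXC ligands of Cxcr2 draw neutrophils, the interferon-inducible ligands of Cxcr3 draw lymphocytes, and several CC ligands draw monocytes. Interleukins and colony stimulating factors act through receptor chains that are often shared: gp130 (*Il6st*) serves the IL-6 family, the common gamma chain (*Il2rg*) serves the IL-2 family, and *Il1rap* serves the IL-1 family. Carcinoma cells are known to secrete many of them, and NF-kappaB, STAT and AP-1 factors are known regulators of their genes.

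Total counts ranged from 32393958 to 46681945 per tumour, so that 3 counts, taken as the least amount told from 0, corresponded to 0.0630 to 0.0998 CPM. The tumour labelled HR1 replicate 1 stood apart. It had 1343 CPM of *Nfib*, the gene by which the study calls HR1 low and LM1 and LM9 high, against 23.9 and 18.3 CPM in HR1 replicates 2 and 3 and 420.6 to 791 CPM in the LM tumours. Over all tested genes its log2 CPM correlated with those replicates at r = 0.904 and 0.894, while they correlated with each other at 0.969 and LM replicates at 0.990 to 0.995. Each comparison with HR1 is therefore given with it and, where named, without it. Leukocyte markers were present despite the sort: 20 of 20 markers were counted in every tumour, and their sum was 932, 1406 and 314 CPM in HR1, 267 to 300.2 CPM in LM1 and 223 to 281 CPM in LM9. None of 6 lymphocyte markers was among the listed genes. Of 10 mammary epithelial markers 6 were listed, and *Krt8*, *Krt7*, *Cldn3* and *Cldn4* were not. *Epcam* was at 0.0254 to 4.49 CPM, and the basal keratin *Krt14* at 1.56, 31.4 and 109 CPM in HR1, 175, 152 and 175 CPM in LM1 and 12.2 to 15.4 CPM in LM9, whereas *Col1a1* was at 6359 to 12670 CPM. In bulk counts, fewer cells of a type and less RNA per cell cannot be told apart.

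Sequences upstream of the start site are shown for members that stand beside each other on chromosome 5 and for members described below, since the groups moved apart at several of them. They are the 250 bases before the RefSeq start (GRCm38.p6), read 5′ to 3′ along the gene. Capitals mark matches, on either strand, to the NF-kappaB consensus, the AP-1 site TGANTCA, the interferon response element core GAAANNGAA or the gamma-activated site TTCNNNGAA. The first 4 lie on the plus strand at chr5:90785851-90786100, chr5:90794284-90794533, chr5:90890995-90891244 and chr5:90903649-90903898.
Cxcl3: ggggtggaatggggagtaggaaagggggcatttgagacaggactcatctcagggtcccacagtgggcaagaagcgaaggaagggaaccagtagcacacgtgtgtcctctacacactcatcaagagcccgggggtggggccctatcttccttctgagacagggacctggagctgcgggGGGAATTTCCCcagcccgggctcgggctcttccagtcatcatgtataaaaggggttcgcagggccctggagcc
Cxcl15: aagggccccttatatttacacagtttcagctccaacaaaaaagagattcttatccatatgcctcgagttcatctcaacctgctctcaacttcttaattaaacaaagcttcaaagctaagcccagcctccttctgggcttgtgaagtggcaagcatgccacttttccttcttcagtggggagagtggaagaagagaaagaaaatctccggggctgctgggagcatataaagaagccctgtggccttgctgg
Cxcl1: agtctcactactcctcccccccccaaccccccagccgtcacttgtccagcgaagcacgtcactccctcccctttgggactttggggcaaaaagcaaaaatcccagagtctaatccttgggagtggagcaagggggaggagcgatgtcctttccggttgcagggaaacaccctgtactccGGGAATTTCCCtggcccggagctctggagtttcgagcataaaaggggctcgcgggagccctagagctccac
Cxcl2: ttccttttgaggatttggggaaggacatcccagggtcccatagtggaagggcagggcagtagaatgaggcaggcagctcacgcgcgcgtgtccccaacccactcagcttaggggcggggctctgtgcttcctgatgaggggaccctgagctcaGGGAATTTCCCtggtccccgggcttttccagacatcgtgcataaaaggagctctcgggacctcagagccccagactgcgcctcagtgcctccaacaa

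The next lie on the minus strand at chr5:92348890-92349139 and chr5:92328080-92328329, for ligands of the same receptor, and on the plus strand at chr5:30012864-30013113.
Cxcl10: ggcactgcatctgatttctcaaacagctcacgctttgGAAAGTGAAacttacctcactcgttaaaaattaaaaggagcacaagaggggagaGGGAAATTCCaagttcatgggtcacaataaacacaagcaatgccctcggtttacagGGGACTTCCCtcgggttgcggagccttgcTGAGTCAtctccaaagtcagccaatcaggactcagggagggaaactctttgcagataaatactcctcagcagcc
Cxcl9: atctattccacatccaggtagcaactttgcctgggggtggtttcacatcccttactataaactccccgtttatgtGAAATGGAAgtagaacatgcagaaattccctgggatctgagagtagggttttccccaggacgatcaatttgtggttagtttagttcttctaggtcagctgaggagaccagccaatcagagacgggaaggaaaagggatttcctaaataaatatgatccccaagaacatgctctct
Il6: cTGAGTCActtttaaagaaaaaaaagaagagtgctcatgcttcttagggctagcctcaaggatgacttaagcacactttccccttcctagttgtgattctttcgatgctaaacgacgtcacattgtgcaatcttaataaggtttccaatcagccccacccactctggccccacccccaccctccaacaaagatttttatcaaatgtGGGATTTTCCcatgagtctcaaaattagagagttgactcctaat

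*Cxcl3*, *Cxcl1* and *Cxcl2* each held a pair of overlapping NF-kappaB matches, 63 to 73, 61 to 71 and 87 to 97 bases before the start, and the *Cxcl15* window held none of the motifs searched. *Cxcl10* held 2 NF-kappaB matches, an AP-1 site and an interferon response core, *Cxcl9* held an interferon response core alone, and *Il6* held an NF-kappaB and an AP-1 match. RefSeq windows were matched for 51 of the 70 members. With the first listed window of each gene, the NF-kappaB consensus was found in 10 of 51 members (19.6%) and in 3.75% of 27025 promoters. AP-1 sites were found in 17.6% of members against 6.87% of all, interferon response cores in 13.7% against 7.16%, and gamma-activated sites in 7.84% against 7.18%. The NFI palindrome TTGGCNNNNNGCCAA was in none of the 51 and in 0.0407% of all. Of the 10 members with the NF-kappaB match 8 were called higher and 0 lower in LM9 against HR1, and of the 41 without it 9 were higher and 10 lower, where 20.4% of all tested genes were higher and 21.9% lower. In the same comparison 4 of 7 members with an interferon response core were higher and 1 lower, 3 of 9 with an AP-1 site were higher and 2 lower, and of 4 with a gamma-activated site 0 were higher and 1 lower. The *Tnf* window, which is not printed, held none of these motifs. *Ccl9* and *Il19* held an NF-kappaB match and were called in neither model with all tumours. These are matches of letters within 1 window and were not tested.

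Member transcripts made up 0.140 to 0.158% of all counts in HR1, 0.275 to 0.3125% in LM1 and 0.360 to 0.378% in LM9, without overlap between the models. Their summed level was 1566, 1396 and 1560 CPM in HR1, 2777, 2973 and 2715 CPM in LM1, and 3609, 3721 and 3802 CPM in LM9. Most of the sum came from a few genes. On the scale of CPM per kilobase of exon, which allows levels of different genes to be compared, *Il17rc* (mean 127), *Il33* (85.1) and *Csf1* (52.8) led in HR1. In LM1 *Ccl7* (156) led, followed by *Il33* (138), *Il17rc* (125) and *Csf1* (115). In LM9 *Il33* (294), *Ccl5* (239), *Ccl7* (234) and *Cxcl1* (177) led. These levels are means of 3 tumours, and the order of neighbouring genes was not tested. *Cxcl11* (mean 76.1 CPM in LM1) had no exon length and is missing from this scale.

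To ask which members differ between the metastasis-derived models and HR1, each LM model was compared with HR1 by edgeR's quasi-likelihood test, with an adjusted p under 0.05 over all 14086 tested genes as the threshold for a call. In LM1 19 members were higher and 11 lower, 27.1% and 15.7% of the 70, where 16.7% of all tested genes were higher and 18.7% lower. In LM9 26 members were higher and 15 lower, 37.1% and 21.4%, where 20.4% of all were higher and 21.9% lower. The share of members that were higher thus lay above the background in both models, and the share that were lower lay near it. These shares are a description and were not tested. Some called members could be listed only through the models where they are high. These were *Csf2*, *Csf3*, *Ccl20*, *Il2ra* and *Il24* through LM tumours, *Cxcl3* through LM9, and *Cxcl13* and *Il17rb* through HR1. They are counted in the shares, and all other genes were listed by the same rule. Median log2 fold changes of the members were 0.26 and 0.34, and those of all tested genes −0.04 and −0.05. Without HR1 replicate 1 there were 24 higher and 17 lower members in LM1 (all genes: 26.9% and 26%), and 30 higher and 21 lower in LM9 (all genes: 27.9% and 27.8%). All 30 calls of LM1 and all 41 calls of LM9 kept their direction and their call without that tumour. The fitted fold moved by over 1.5 times without it for 5 of the 30 (*Ccl5*, *Cxcl9*, *Cxcl15*, *Il6* and *Il17rb*) and for 7 of the 41 (the same genes, *Cxcl14* and *Il16*), and their values without it are given at each gene. Members called only without it were *Ccl2*, *Il7*, *Il20rb*, *Il23a* and *Il33* (higher) and *Il2rb*, *Il3ra*, *Il7r*, *Il11*, *Il27ra* and *Il34* (lower) in LM1, and *Il7*, *Il15*, *Il18* and *Il20rb* (higher) and *Il1r2*, *Il2rg*, *Il11*, *Il13ra2*, *Il19* and *Il34* (lower) in LM9. Every LM1 tumour lay above every HR1 tumour for 28 members and below for 10, against 23.9% and 21.7% of all genes, and the LM9 tumours did so for 29 and 12, against 28% and 25.3%.

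Of 45 ligands 15 were higher and 5 lower in LM1 (33.3% and 11.1%), and 22 higher and 8 lower in LM9 (48.9% and 17.8%). Of 25 receptor chains 4 were higher and 6 lower in LM1 (16% and 24%), and 4 higher and 7 lower in LM9 (16% and 28%), beside the shares of all genes above. Whether ligands and receptors differ was not tested. Both comparisons used the same HR1 tumours, so calls that they share are not independent of each other.

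**Figure D1:**
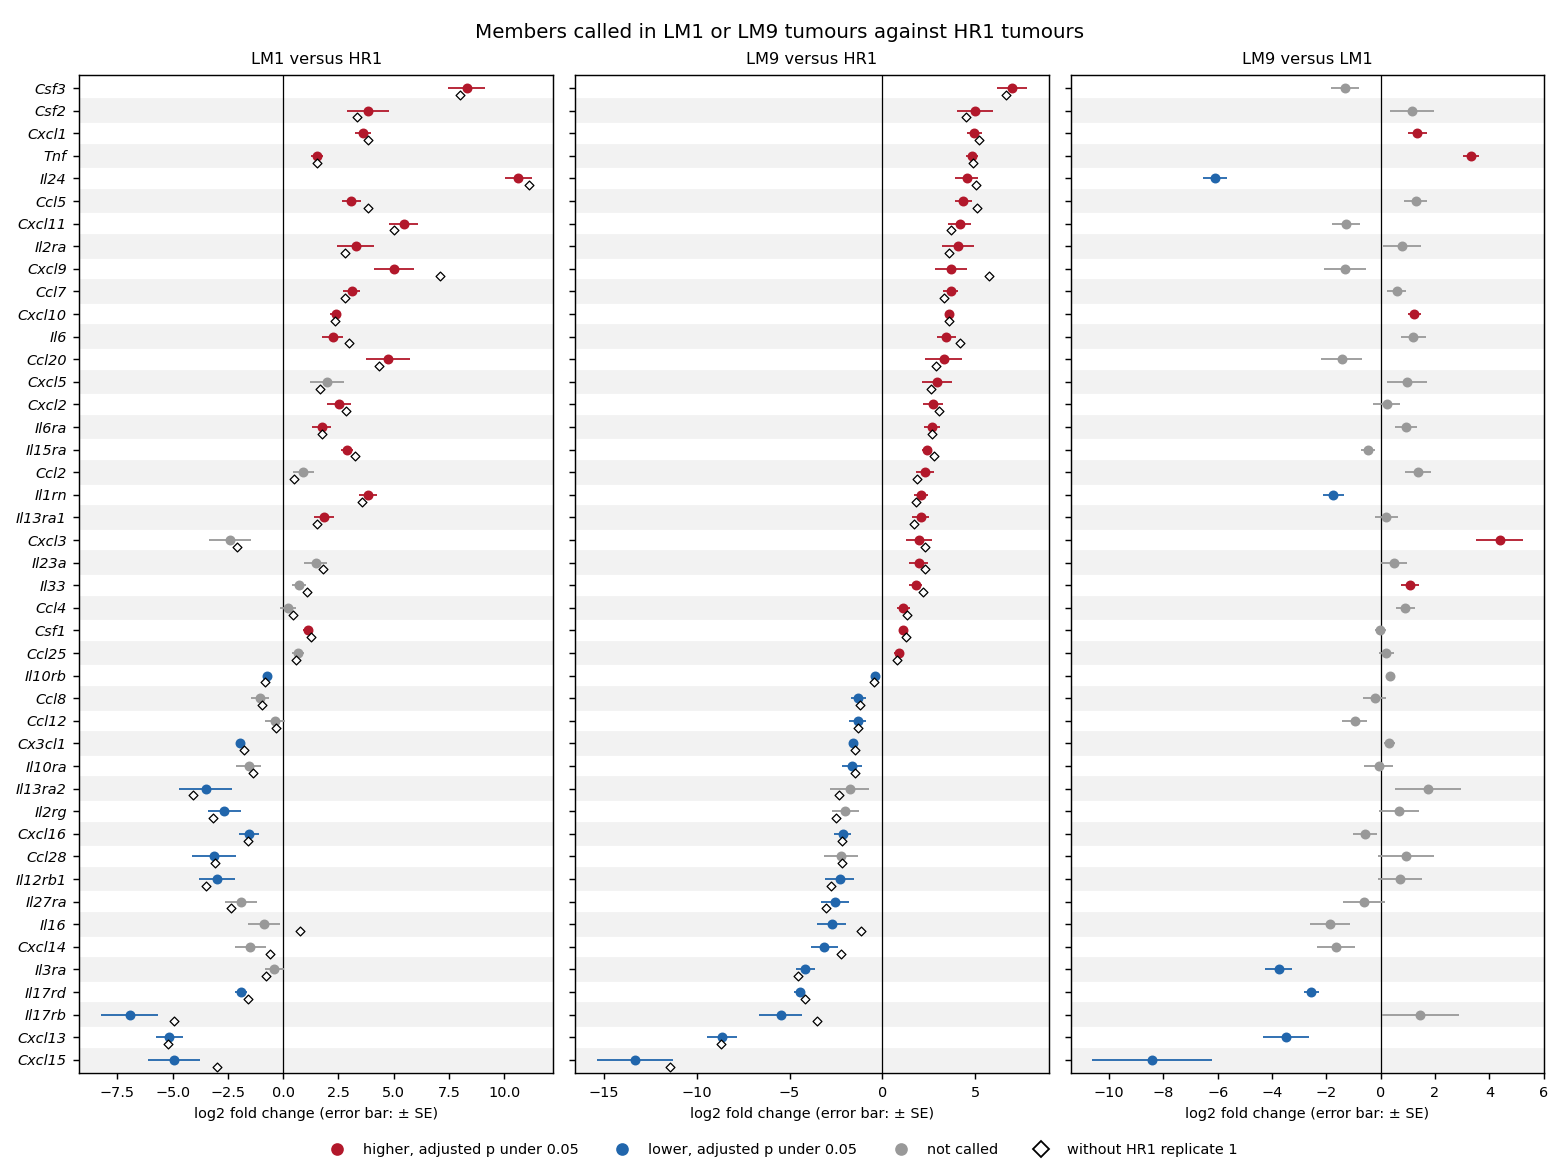
Log2 fold changes (x axis, error bars ± SE of the edgeR fit) of the members called in LM1 or LM9 against HR1, in 3 panels for LM1 versus HR1, LM9 versus HR1 and LM9 versus LM1, each with its own x scale. Filled circles are red for higher, blue for lower and grey for not called, and open diamonds leave out HR1 replicate 1. Fitted values of genes with a group at or near 0 reads (*Csf3*, *Il24*, *Ccl20*, *Cxcl3*, *Cxcl13*, *Cxcl15*, *Il17rb*) depend on the prior count of the fit. All 30 and 41 calls against HR1 stayed on their side of 0 without that tumour.

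Among the 13 CC chemokines, *Ccl5*, *Ccl7* and *Ccl20* were higher in both LM models, and *Ccl2*, *Ccl4* and *Ccl25* were called in LM9. Lower were *Ccl28* in LM1 and *Ccl12* and *Ccl8* in LM9. The shares higher and lower were 23.1% and 7.69% in LM1, and 46.2% and 15.4% in LM9. Those of all genes were 16.7% and 18.7%, and 20.4% and 21.9%. *Ccl5*, an attractant of monocytes and T cells, stood at 20.1, 7.32 and 6.05 CPM in HR1, 106, 85.9 and 91.7 CPM in LM1 and 179.9, 241 and 267 CPM in LM9. The 3 models did not overlap, and HR1 replicate 1 was the highest of its group. The log2 fold change against HR1 was 3.09 (SE 0.44, edgeR adjusted p = 0.00125) in LM1 and 4.37 (SE 0.46, edgeR adjusted p = 0.0003) in LM9, and 3.83 and 5.10 without HR1 replicate 1 (edgeR adjusted p = 1.5e-06 and 3.5e-07). *Ccl7*, a monocyte attractant that binds Ccr2, was at 7.12, 23.7 and 13 CPM in HR1, 128, 127 and 120.4 CPM in LM1 and 167, 193 and 202 CPM in LM9. The fit gave a log2 fold change of 3.10 (SE 0.38, edgeR adjusted p = 0.00064) in LM1 and 3.68 (SE 0.39, edgeR adjusted p = 0.00029) in LM9. *Ccl2*, next to it on chromosome 11 and a ligand of the same receptor, was at 6.38, 34.1 and 26.4 CPM in HR1, where replicate 1 was the lowest, 38.9, 45.9 and 40.8 CPM in LM1 and 103, 96.7 and 127 CPM in LM9. The fitted log2 difference was 2.28 (SE 0.49, edgeR adjusted p = 0.0071) in LM9, and 0.91 (SE 0.48, edgeR adjusted p = 0.168) in LM1, which became 0.48 (edgeR adjusted p = 0.0335) without HR1 replicate 1.

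*Ccl12* and *Ccl8* follow *Ccl2* and *Ccl7* in the same cluster (chromosome 11, 82035577 to 82116799) and also act on monocytes, but were not higher. *Ccl12* was at 10.4, 15.2 and 4.55 CPM in HR1, 7.81, 7.84 and 7.59 CPM in LM1 and 4.31, 2.17 and 5.45 CPM in LM9, and *Ccl8* at 3.06, 3.15 and 1.93, 1.76, 1.13 and 0.991 and 1.59, 0.939 and 0.788 CPM. LM9 overlapped HR1 for *Ccl12* and lay below it for *Ccl8*. The log2 fold changes in LM9 were −1.33 (SE 0.46, edgeR adjusted p = 0.0437) and −1.29 (SE 0.42, edgeR adjusted p = 0.0345), and the calls were lost in 7 and 4 of 9 fits that left out 1 tumour (largest edgeR adjusted p = 0.14 and 0.121). Both were highest in HR1 replicate 2, the tumour with the highest leukocyte marker sum, and the part of leukocytes in them was not tested. In the second CC cluster (chromosome 11, 83525778 to 83664683), *Ccl9*, *Ccl6* and *Ccl3*, which myeloid cells are known to make, were called in neither model. *Ccl9* was at 4.25 to 9.55 CPM in HR1, 7.13 to 9.27 in LM1 and 6.62 to 14.5 in LM9.

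*Ccl4*, in that cluster, was at 3.23, 3.08 and 1.29 CPM in HR1, 3.05, 3.10 and 2.69 CPM in LM1 and 5.82, 5.13 and 5.63 CPM in LM9. Its log2 fold change in LM9 was 1.13 (SE 0.36, edgeR adjusted p = 0.0338), and the call was lost in 6 of 9 fits without 1 tumour (largest edgeR adjusted p = 0.095). *Ccl25*, the Ccr9 ligand, rose by 0.89 on the log2 scale in LM9 (edgeR adjusted p = 0.023), with 3.06 to 4.84 CPM in HR1 and 6.48 to 7.04 CPM in LM9, and this call was lost in 4 of those fits (up to 0.0747). *Ccl20*, the Ccr6 ligand, had 0, 0 and 3 counts in HR1, 104 counts over the LM1 tumours and 39 over the LM9 tumours. The ratio of scaled counts was 29.97 (95% counting interval 9.975 to 148) in LM1 (edgeR adjusted p = 0.00665) and 10.9 (95% counting interval 3.48 to 55.3) in LM9 (edgeR adjusted p = 0.0269). In LM9 its call was lost in 3 of 9 fits without 1 tumour (HR1 replicate 2, LM9 replicate 1 or LM9 replicate 2, up to 0.0951). Fitted log2 fold changes of *Ccl20*, 4.76 in LM1 and 3.32 in LM9, were 8.08 and 6.64 without HR1 replicate 3, 4.14 and 2.70 without HR1 replicate 2, and 2.67 in LM9 without LM9 replicate 2. *Ccl28* was under 1 CPM throughout, with 0.665, 0.968 and 0.257 CPM in HR1 and 0, 0.159 and 0.0508 CPM in LM1 (log2 fold change −3.13, SE 0.99, edgeR adjusted p = 0.0368), a call lost in 5 of the 9 fits (up to 0.111), with values of −2.54 without LM1 replicate 1 and −4.58 without LM1 replicate 2. *Ccl22* stayed between 0.133 and 0.657 CPM and was not called.

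**Figure D2:**
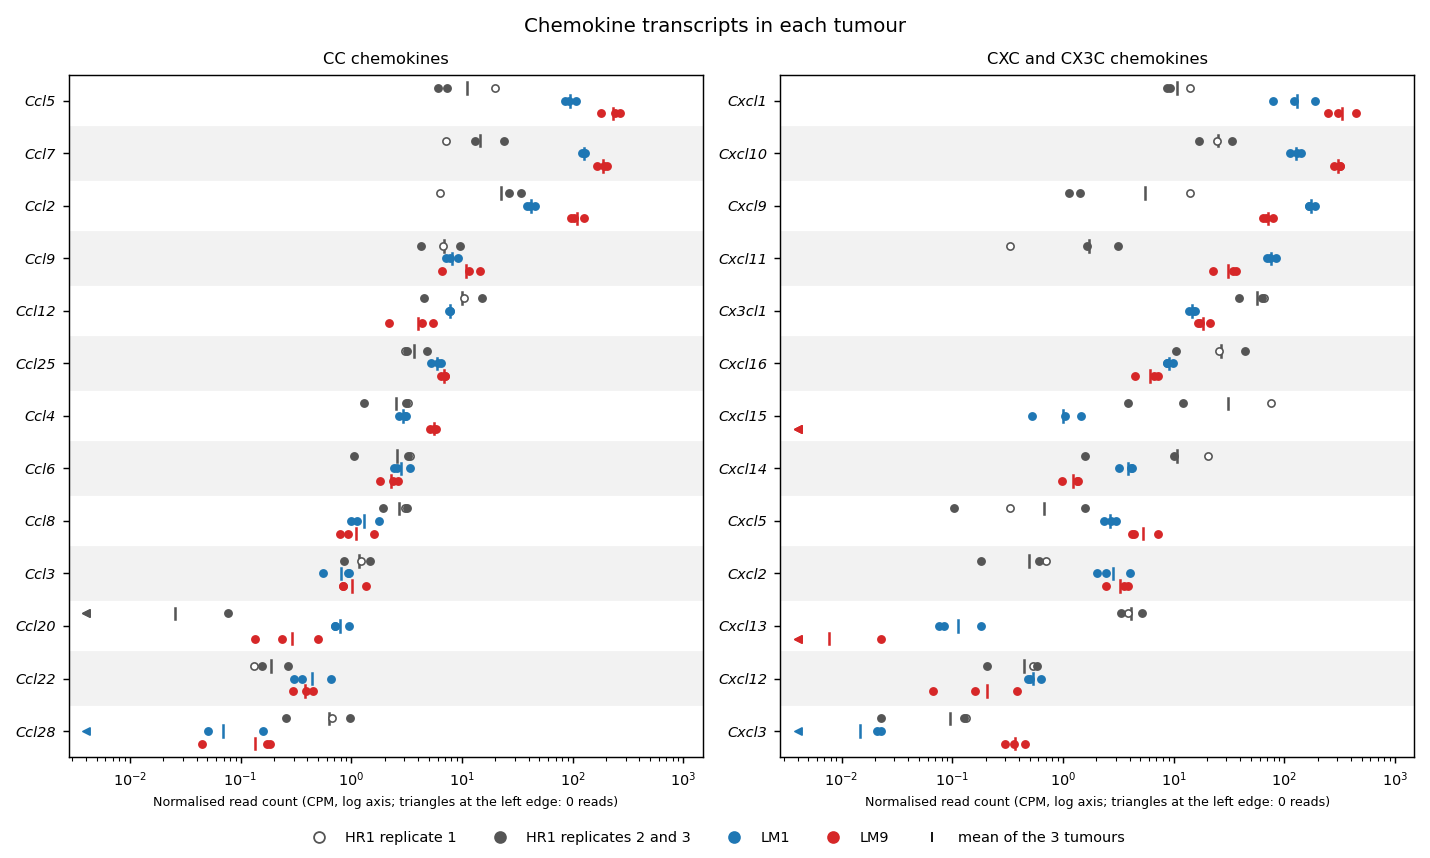
Normalised read count (CPM, log x axis) of each of the 13 CC and the 13 CXC and CX3C chemokines in the 9 tumours. Points are tumours (HR1 grey with replicate 1 open, LM1 blue, LM9 red), vertical ticks are means of 3 tumours, and triangles at the left edge mark 0 reads. *Cxcl1* and *Cxcl10* lay higher in LM1 than in HR1 and higher still in LM9, whereas *Cxcl15* and *Cxcl13* lay lower, with *Cxcl15* at 0 reads in the LM9 tumours.

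Of 13 CXC and CX3C chemokines 5 were higher and 4 lower in LM1 (38.5% and 30.8%), and 7 higher and 5 lower in LM9 (53.8% and 38.5%), against 16.7% and 18.7%, and 20.4% and 21.9%, of all genes. The Cxcr2 ligands *Cxcl1* and *Cxcl2*, which attract neutrophils, rose in both LM models, and *Cxcl3* and *Cxcl5* in LM9. *Cxcl1* was at 14, 9.37 and 8.65 CPM in HR1, 121, 189 and 79.8 CPM in LM1 and 303, 444 and 251 CPM in LM9, with no overlap between the models. This was a log2 fold change of 3.61 (SE 0.38, edgeR adjusted p = 0.00035) in LM1 and 4.96 (SE 0.40, edgeR adjusted p = 8.9e-05) in LM9 (3.86 and 5.21 without HR1 replicate 1). LM9 exceeded LM1 by 1.35 (SE 0.35, edgeR adjusted p = 0.0257) on the log2 scale, a call lost in 4 of 9 fits without 1 tumour (largest edgeR adjusted p = 0.1). *Cxcl2* was at 0.698, 0.608 and 0.180 CPM in HR1, 2.44, 4.03 and 2.03 CPM in LM1 and 3.88, 3.57 and 2.45 CPM in LM9, so the LM models overlapped each other but not HR1. Its log2 fold change was 2.52 (SE 0.53, edgeR adjusted p = 0.00738) in LM1 and 2.74 (SE 0.54, edgeR adjusted p = 0.00445) in LM9. *Cxcl5* was at 0.333, 1.58 and 0.103 CPM in HR1, 2.71, 2.33 and 3.02 CPM in LM1 and 4.23, 4.39 and 7.18 CPM in LM9, with a log2 fold change of 2.95 (SE 0.80, edgeR adjusted p = 0.0175) in LM9, a call lost without LM9 replicate 3 (edgeR adjusted p = 0.0555) and a value of 4.62 without HR1 replicate 2, and 1.98 (SE 0.77, edgeR adjusted p = 0.0756) in LM1.

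*Cxcl3* was a minor transcript, with 4, 1 and 5 counts in HR1, 1, 1 and 0 in LM1 and 21, 13 and 16 in LM9. LM9 lay above both other models. The ratio of LM9 to LM1 was 24.3 (95% counting interval 6.39 to 206.5, edgeR adjusted p = 0.00979), and its log2 fold change against HR1 was 1.98 (SE 0.70, edgeR adjusted p = 0.0487), a call lost in 7 of 9 fits without 1 tumour (up to 0.137). *Cxcl2* and *Cxcl3* shared 5.84% and 4.24% of their 50-base windows with other genes, mostly each other. *Cxcl15*, known as lungkine and normally made by lung epithelium, lies between *Cxcl3* and *Cxcl1* and went the other way. It was at 76.2, 3.85 and 12.2 CPM in HR1, 1.05, 0.521 and 1.45 CPM in LM1 and 0 counts in each LM9 tumour. HR1 replicate 1 was by far the highest, yet replicates 2 and 3 also lay above every LM tumour. Against 3 counts in each LM9 tumour, HR1 was at least 460.1-fold higher, and at least 120.2-fold higher without replicate 1 (edgeR adjusted p = 0.00318 and 0.00014). In LM1 the log2 fold change was −4.93 (SE 1.18, edgeR adjusted p = 0.0188) and −2.99 (edgeR adjusted p = 0.00426) without HR1 replicate 1; the call was lost when any LM1 tumour was left out (edgeR adjusted p up to 0.074).

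The Cxcr3 ligands *Cxcl9*, *Cxcl10* and *Cxcl11*, a second chromosome 5 cluster (92321331 to 92363296) known for induction by interferon, were higher in both LM models. *Cxcl10* was at 24.5, 16.8 and 33.5 CPM in HR1, 130.4, 143 and 113 CPM in LM1 and 316, 283 and 316 CPM in LM9. The fit gave a log2 fold change of 2.37 (SE 0.24, edgeR adjusted p = 0.0003) in LM1 and 3.61 (SE 0.25, edgeR adjusted p = 3.9e-05) in LM9, and LM9 exceeded LM1 by 1.24 (SE 0.23, edgeR adjusted p = 0.00763). *Cxcl9* showed another order, at 14, 1.44 and 1.13 CPM in HR1, 190.4, 168 and 169 CPM in LM1 and 64.8, 78.8 and 68.5 CPM in LM9. The fitted log2 difference was 5.01 (SE 0.92, edgeR adjusted p = 0.00396) in LM1 and 3.69 (SE 0.86, edgeR adjusted p = 0.00992) in LM9, and 7.09 and 5.77 without HR1 replicate 1, in which it was highest of the group. *Cxcl11* was at 0.333, 1.64 and 3.17 CPM in HR1, 83.5, 70.1 and 74.5 CPM in LM1 and 34.5, 22.8 and 36.7 CPM in LM9, with log2 fold changes of 5.45 (SE 0.65, edgeR adjusted p = 0.00058) and 4.17 (SE 0.61, edgeR adjusted p = 0.00126). Without HR1 replicate 3 those of *Cxcl11* were 6.20 and 4.92. For *Cxcl9* and *Cxcl11* each LM1 tumour lay above each LM9 tumour, with LM9-to-LM1 log2 fold changes of −1.31 and −1.28. With all tumours in the fit these differences were not called (edgeR adjusted p = 0.254 and 0.116), and without HR1 replicate 1 they were (edgeR adjusted p = 5e-05 and 0.00199).

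*Cx3cl1*, *Cxcl16*, *Cxcl13* and *Cxcl15* were lower in both LM models. *Cx3cl1*, or fractalkine, the membrane-bound ligand of Cx3cr1, was at 65.6, 39.3 and 63.6 CPM in HR1, 13.9, 15.5 and 14.9 CPM in LM1 and 21.4, 17.4 and 16.6 CPM in LM9. No LM tumour reached the lowest HR1 tumour, and the log2 fold change was −1.93 (SE 0.22, edgeR adjusted p = 0.00044) in LM1 and −1.60 (SE 0.21, edgeR adjusted p = 0.00081) in LM9. *Cxcl13*, the B cell attractant, was at 3.89, 3.35 and 5.22 CPM in HR1 and 0.0840, 0.181 and 0.0762 CPM in LM1 (log2 fold change −5.15, SE 0.60, edgeR adjusted p = 0.00052), with 0, 1 and 0 counts in LM9. HR1 exceeded LM9 by a count ratio of 557 (95% counting interval 99.55 to 22060, edgeR adjusted p = 0.00014), and the fitted log2 fold change of −8.64 was −10.45 without LM9 replicate 2, which held the 1 count. *Cxcl16*, also membrane-bound and the ligand of Cxcr6, was at 25.8, 44.6 and 10.5 CPM in HR1, 9.94, 8.70 and 8.71 CPM in LM1 and 6.65, 4.49 and 7.29 CPM in LM9. The log2 fold change was −2.13 (SE 0.46, edgeR adjusted p = 0.00665) in LM9 and −1.56 (SE 0.45, edgeR adjusted p = 0.0253) in LM1, where the call was lost in 4 of 9 fits without 1 tumour (up to 0.0827). It was highest in HR1 replicate 2 and lowest in HR1 replicate 3, the order of the leukocyte marker sum, and 18.3% of its exon bases lie opposite *Zmynd15*. *Cxcl14*, an epithelial chemokine, was at 20.4, 10.1 and 1.59 CPM in HR1, 3.20 to 4.20 CPM in LM1 and 0.987 to 1.37 CPM in LM9 (log2 fold change −3.12, SE 0.75, edgeR adjusted p = 0.0108, −2.25 without HR1 replicate 1, and not called by limma-voom, adjusted p = 0.0777). *Cxcl12*, the Cxcr4 ligand that stromal fibroblasts are known for, was at or under 0.634 CPM in each tumour and was not called.

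In the IL-1 family, *Il1rn*, which encodes the receptor antagonist, rose in both LM models, and *Il33*, an alarmin, was called in LM9. Of the 8 members 12.5% were higher in LM1 and 25% in LM9, and 0% were lower. Of all genes 16.7% were higher and 18.7% lower in LM1, and 20.4% and 21.9% in LM9. *Il1rn* was at 3.89, 11.5 and 4.17 CPM in HR1, 87.5, 88.1 and 102 CPM in LM1 and 29.2, 29.1 and 24.7 CPM in LM9. The models did not overlap: its log2 fold change was 3.82 (SE 0.41, edgeR adjusted p = 0.00038) in LM1 and 2.08 (SE 0.38, edgeR adjusted p = 0.0035) in LM9, and that of LM9 against LM1 was −1.74 (SE 0.38, edgeR adjusted p = 0.0141), a call lost in 4 of 9 fits without 1 tumour (up to 0.0612). Without HR1 replicate 2 the changes of *Il1rn* against HR1 were 4.52 and 2.78. *Il33* was abundant in each model, at 358, 121 and 258 CPM in HR1, 376, 412 and 405 CPM in LM1 and 840.2, 779 and 929.6 CPM in LM9. This was a log2 fold change of 1.79 (SE 0.33, edgeR adjusted p = 0.00345) in LM9 and 0.70 (SE 0.32, edgeR adjusted p = 0.123) in LM1, which became 1.08 (edgeR adjusted p = 0.00776) without HR1 replicate 1. LM9 exceeded LM1 by 1.09 (SE 0.33, edgeR adjusted p = 0.0425), a call lost when any LM tumour was left out (up to 0.135). The agonists *Il1a* and *Il1b* were not called. *Il1b* was at 4.36, 6.96 and 1.11 CPM in HR1, 8.11, 12.9 and 6.73 CPM in LM1 and 5.54, 5.22 and 5.04 CPM in LM9, with HR1 following the order of its leukocyte markers. *Il18* was at 20.1, 7.77 and 15.1 CPM in HR1, 10.6, 9.60 and 11.9 CPM in LM1 and 20.4, 17.6 and 24.5 CPM in LM9, and its log2 fold change in LM9 was 0.54 (SE 0.31, edgeR adjusted p = 0.191), or 0.87 (edgeR adjusted p = 0.0212) without HR1 replicate 1. *Il1rap*, the shared co-receptor, varied within HR1 (4.72, 37.2 and 2.55 CPM) more than between models (18.7 to 22.8 CPM in LM1, 21.2 to 23.4 CPM in LM9).

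In the IL-6 family the ligand *Il6* and its receptor chain *Il6ra* both rose in LM1 and LM9. Of the 6 members 33.3% were higher in each model, and 0% in LM1 and 16.7% in LM9 were lower. Of all genes 16.7% were higher and 18.7% lower in LM1, and 20.4% and 21.9% in LM9. *Il6* was at 1.53, 0.585 and 0.412 CPM in HR1, 4.22, 4.73 and 3 CPM in LM1 and 8.59, 8.24 and 10.6 CPM in LM9, with log2 fold changes of 2.25 (SE 0.48, edgeR adjusted p = 0.00742) in LM1 and 3.45 (SE 0.50, edgeR adjusted p = 0.00114) in LM9 (2.99 and 4.18 without HR1 replicate 1). The models did not overlap, and HR1 replicate 1 had the highest HR1 level. *Il6ra* was at 3.09, 4.32 and 1.54 CPM in HR1, 8.67, 14.2 and 6.99 CPM in LM1 and 24.8, 15.7 and 16.6 CPM in LM9. Its log2 fold change was 2.67 (SE 0.43, edgeR adjusted p = 0.00185) in LM9 and 1.74 (SE 0.42, edgeR adjusted p = 0.0125) in LM1, where it was not called without LM1 replicate 2 (edgeR adjusted p = 0.0513). *Il6st*, which encodes the signalling chain gp130, was at 122 to 137 CPM in HR1, 154 to 211 CPM in LM1 and 147 to 158 CPM in LM9. It was called higher in LM1 (log2 fold change 0.45, SE 0.14, edgeR adjusted p = 0.038) and not called in LM9 (0.24, SE 0.14, edgeR adjusted p = 0.2). *Lif*, another gp130 ligand, was at 9.01, 23.5 and 25.2 CPM in HR1, 37.7, 57.5 and 30.1 CPM in LM1 and 21.3, 16.4 and 9.61 CPM in LM9. It was called against HR1 in neither model, and LM9 differed from LM1 by a log2 fold change of −1.41 (SE 0.44, edgeR adjusted p = 0.0506), or −1.41 (edgeR adjusted p = 0.00602) without HR1 replicate 1. *Il11* was at 0.0333, 0.720 and 1.59 CPM in HR1 and at or under 0.483 CPM in the LM tumours, and was called lower only without HR1 replicate 1 (log2 fold change −1.79 in LM1, edgeR adjusted p = 0.0209, and −2.79 in LM9, edgeR adjusted p = 0.00284). Counts of *Il11ra1* are uncertain, since 46.3% of its 50-base windows also occur in *Il11ra2* or *Gm13305*.

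Of 5 colony stimulating factors with *Tnf*, *Csf1*, *Csf2*, *Csf3* and *Tnf* rose in both LM models, and *Il34* was not called. This was 80% higher in each model, where 16.7% of all genes were higher in LM1 and 20.4% in LM9. *Csf1*, the macrophage factor that binds Csf1r, was already abundant in HR1, at 335, 194 and 307 CPM, and reached 591, 711 and 517 CPM in LM1 and 617, 585 and 595 CPM in LM9. The fit gave a log2 fold change of 1.12 (SE 0.21, edgeR adjusted p = 0.00472) in LM1 and 1.10 (SE 0.21, edgeR adjusted p = 0.00431) in LM9, and the LM models overlapped. *Il34*, the other Csf1r ligand, was at 12.8, 24.3 and 25.7 CPM in HR1, 16.3, 15.2 and 14.8 CPM in LM1 and 15.1, 12.4 and 13.5 CPM in LM9. It was lower only without HR1 replicate 1 (log2 fold change −0.69 in LM1, edgeR adjusted p = 0.00305, and −0.87 in LM9, edgeR adjusted p = 0.00077). *Csf2*, the granulocyte-macrophage factor, was at 0, 0.0225 and 0.309 CPM in HR1, 1.64, 2.31 and 1.04 CPM in LM1 and 3.33, 5.13 and 2.65 CPM in LM9, with log2 fold changes of 3.85 (SE 0.96, edgeR adjusted p = 0.0146) and 5.0 (SE 0.99, edgeR adjusted p = 0.00465), the former not called without LM1 replicate 2 (edgeR adjusted p = 0.0517). Without HR1 replicate 3, which held most of the HR1 counts of *Csf2*, they were 6.69 and 7.84. *Csf3*, the granulocyte factor, had 1 count over the 3 HR1 tumours, 492 over LM1 and 202 over LM9. The ratio was 425 (95% counting interval 76 to 16830) in LM1 and 170 (95% counting interval 30.2 to 6746) in LM9 (edgeR adjusted p = 0.00028 and 0.00047). The 1 count was in HR1 replicate 3, and without that tumour the fitted log2 fold changes moved from 8.31 and 6.99 to 10.32 and 8.99. *Tnf* set LM9 apart: it was at 1.26, 1.46 and 0.978 CPM in HR1, 3.23, 4.49 and 2.97 CPM in LM1 and 30.2, 48.6 and 28 CPM in LM9. The fitted log2 difference was 1.53 (SE 0.29, edgeR adjusted p = 0.00451) in LM1, 4.84 (SE 0.32, edgeR adjusted p = 3.4e-05) in LM9 and 3.32 (SE 0.30, edgeR adjusted p = 0.00049) for LM9 against LM1, and 1.55, 4.86 and 3.31 without HR1 replicate 1. The *Tnf* call between LM9 and LM1 was kept whichever tumour was left out (edgeR adjusted p up to 0.00573).

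**Figure D3:**
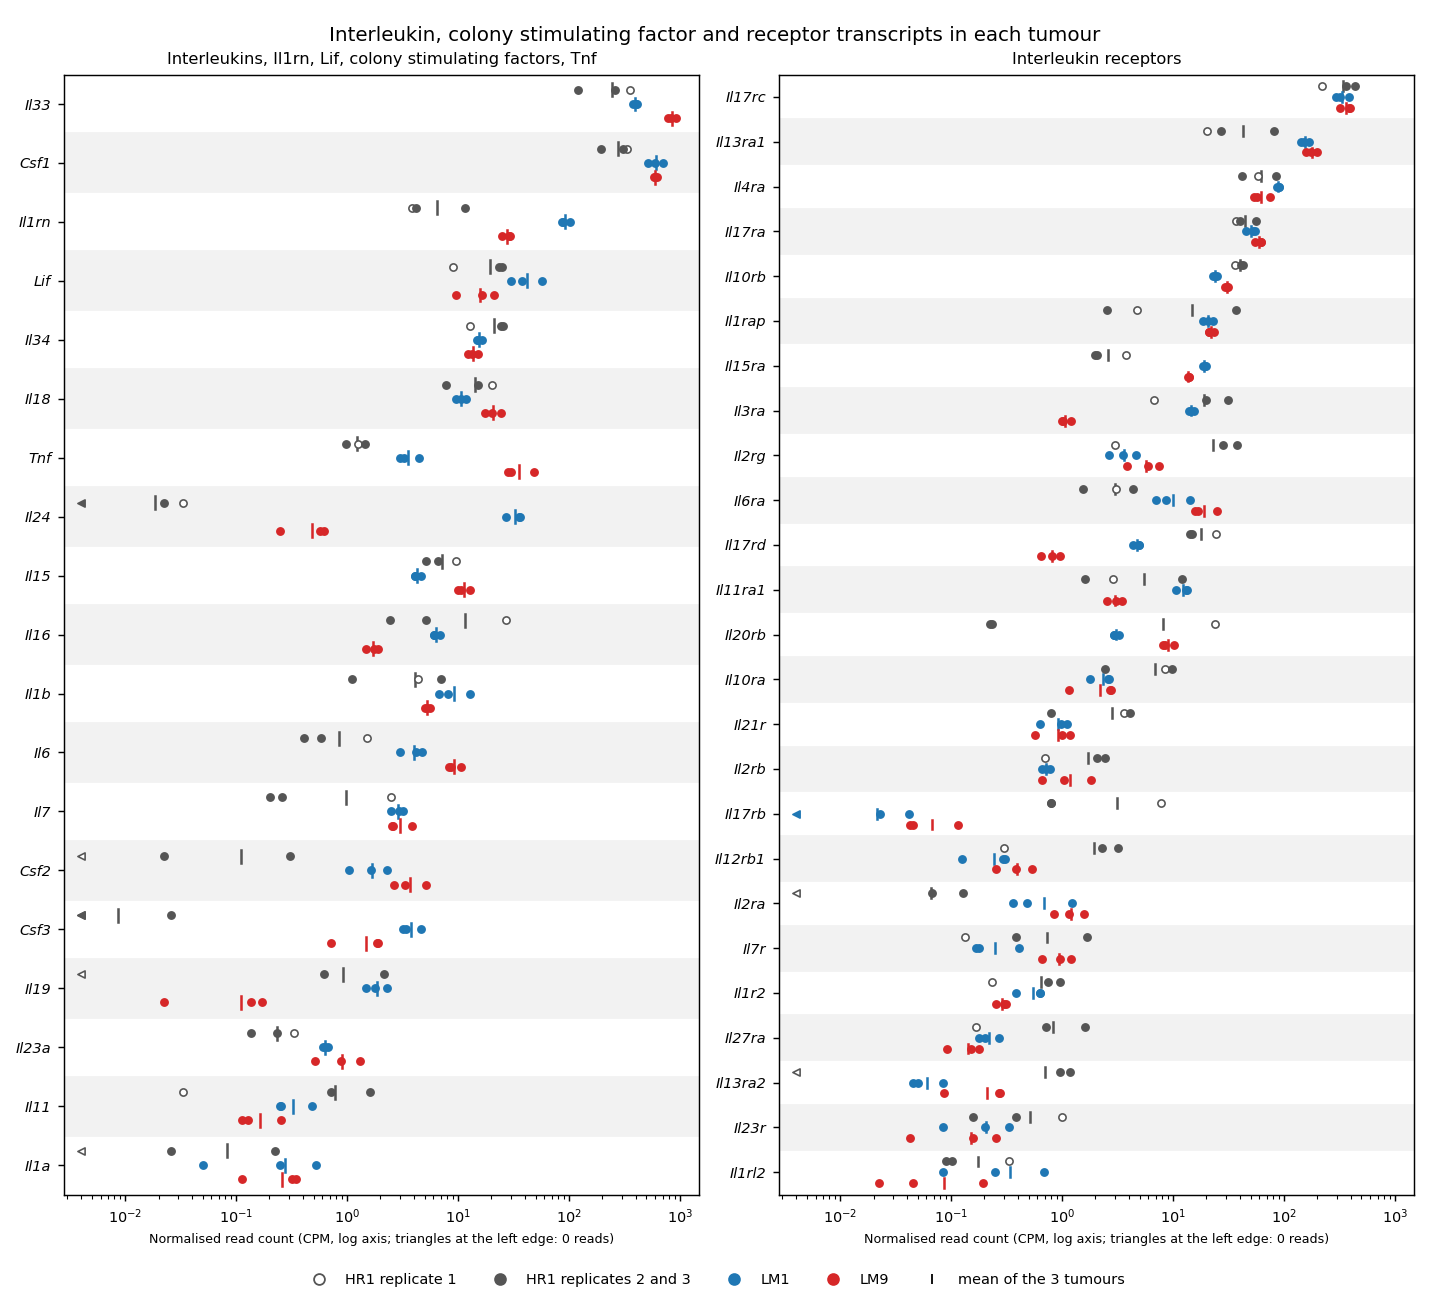
Normalised read count (CPM, log x axis) of the 19 interleukins, antagonist and colony stimulating factors with *Lif* and *Tnf* (left) and of the 25 interleukin receptor chains (right) in the 9 tumours, ordered by mean level. Points are tumours (HR1 grey with replicate 1 open, LM1 blue, LM9 red), ticks are means of 3 tumours and triangles mark 0 reads. *Il24* lay highest in LM1 and *Tnf* in LM9, while *Il17rd* and *Il3ra* lay lowest in LM9.

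Of 11 genes of the common gamma chain family and the Il4 and Il13 receptors, 3 were higher and 2 lower in LM1 (27.3% and 18.2%), and 3 higher and 0 lower in LM9, against 16.7% and 18.7%, and 20.4% and 21.9%, of all genes. *Il13ra1*, which pairs with *Il4ra* to bind IL-4 and IL-13, was at 20.1, 80.8 and 26.8 CPM in HR1, 141, 152 and 169.5 CPM in LM1 and 177, 159 and 198 CPM in LM9. This was a log2 fold change of 1.86 (SE 0.46, edgeR adjusted p = 0.0143) in LM1 and 2.06 (SE 0.46, edgeR adjusted p = 0.00818) in LM9. Without HR1 replicate 2, the highest of its group, they were 2.72 and 2.92. Its partner *Il4ra* was at 58.4, 85.7 and 42.2 CPM in HR1, 86.8 to 89.9 CPM in LM1 and 53.5 to 74.4 CPM in LM9 and was not called. *Il15ra*, which presents IL-15 to neighbouring cells, was at 3.79, 1.98 and 2.08 CPM in HR1, 19.3, 18.5 and 19.7 CPM in LM1 and 13.5, 13.9 and 13.8 CPM in LM9, with log2 fold changes of 2.88 (SE 0.27, edgeR adjusted p = 0.00022) and 2.40 (SE 0.26, edgeR adjusted p = 0.00035). The spread within LM9 was 0.184 CPM (s.d., n = 3). Its ligand *Il15* was at 9.64, 5.20 and 6.64 CPM in HR1, 4.14, 4.10 and 4.67 CPM in LM1 and 12.9, 10.1 and 10.7 CPM in LM9, so that LM1 lay below and LM9 above HR1. The log2 fold change of LM9 against LM1 was 1.38 (SE 0.27, edgeR adjusted p = 0.00889), and those against HR1 were not called (−0.73 in LM1 and 0.65 in LM9, edgeR adjusted p = 0.0577 and 0.0737), but without HR1 replicate 1 *Il15* was higher in LM9 (0.93, edgeR adjusted p = 0.00469). *Il2ra*, beside *Il15ra* on chromosome 2, was a low transcript that rose from 0, 0.0675 and 0.129 CPM to 1.24, 0.362 and 0.483 CPM in LM1 and 1.59, 0.847 and 1.15 CPM in LM9 (log2 fold change 3.29 in LM1, SE 0.84, edgeR adjusted p = 0.016, and 4.07 in LM9, SE 0.85, edgeR adjusted p = 0.0058), the former not called without LM1 replicate 1 (2.58, edgeR adjusted p = 0.0642). Without HR1 replicate 3 they were 4.07 and 4.85.

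The common gamma chain itself, *Il2rg*, was at 2.99, 28.2 and 37.4 CPM in HR1, 2.67, 3.53 and 4.67 CPM in LM1 and 7.56, 3.82 and 5.90 CPM in LM9, and HR1 replicate 1 sat with the LM tumours. Its log2 fold change was −2.66 (SE 0.75, edgeR adjusted p = 0.0246) in LM1, a call lost in 5 of 9 fits without 1 tumour (up to 0.0909), and −1.99 (SE 0.73, edgeR adjusted p = 0.0565) in LM9. Without HR1 replicate 1 they were −3.17 and −2.51 (edgeR adjusted p = 4.1e-05 and 0.00014). Part of this gene, 30.5% of its exon bases, overlaps *Gm20489* on the same strand. *Il13ra2*, a decoy receptor for IL-13, had 0 counts in HR1 replicate 1, 1.17 and 0.952 CPM in the other HR1 tumours and 0.0453 to 0.0840 CPM in LM1 (log2 fold change −3.50, SE 1.20, edgeR adjusted p = 0.0498), a call lost in 8 of 9 fits (up to 0.147). *Il7* was at 2.49, 0.203 and 0.257 CPM in HR1, 2.51 to 3.20 CPM in LM1 and 2.55 to 3.83 CPM in LM9. HR1 replicate 1 lay next to the LM tumours, and only without it was *Il7* called, with log2 fold changes of 3.65 (edgeR adjusted p = 6e-05) in LM1 and 3.69 (edgeR adjusted p = 5.4e-05) in LM9. *Il21r* and *Il2rb*, receptors of lymphoid and myeloid cells, were at or under 4.10 CPM and were not called with all tumours, and *Il2rb* was lower in LM1 without HR1 replicate 1 (log2 fold change −1.63, edgeR adjusted p = 0.0108).

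Among the 14 members of the IL-10, IL-12 and IL-17 families and others, 1 was higher and 4 were lower in LM1 (7.14% and 28.6%), and 2 were higher and 7 lower in LM9 (14.3% and 50%), against 16.7% and 18.7%, and 20.4% and 21.9%, of all genes. The higher one in both was *Il24*. This IL-10 family cytokine (chromosome 1, 130882074 to 130887411, minus strand) had 1, 1 and 0 counts in HR1. It reached 36.1, 27.2 and 35.6 CPM in LM1 and 0.623, 0.572 and 0.247 CPM in LM9. The ratio of scaled counts to HR1 was 1868 (95% counting interval 517 to 15430) in LM1 and 27.4 (95% counting interval 7.27 to 231) in LM9 (edgeR adjusted p = 3e-05 and 0.00091), and the log2 fold change of LM9 against LM1 was −6.09 (SE 0.44, edgeR adjusted p = 0.00027). *Il19*, a family member on the same chromosome, was at 0, 2.16 and 0.618 CPM in HR1, 1.78, 1.47 and 2.29 CPM in LM1 and 0.172, 0.137 and 0.0225 CPM in LM9. LM9 lay below LM1 with a log2 fold change of −4.02 (SE 1.28, edgeR adjusted p = 0.0533), or −4.03 (edgeR adjusted p = 0.00118) without HR1 replicate 1. *Il20rb*, a receptor chain for both cytokines, was at 23.8, 0.225 and 0.232 CPM in HR1, 2.96, 3.24 and 2.95 CPM in LM1 and 8.52, 10.2 and 8.10 CPM in LM9. HR1 replicate 1 exceeded every LM tumour and the other HR1 tumours lay below them all. The log2 fold changes were −1.40 (SE 1.39, edgeR adjusted p = 0.463) in LM1 and 0.15 (SE 1.36, edgeR adjusted p = 0.938) in LM9 with that tumour, and 3.73 (edgeR adjusted p = 1e-05) and 5.28 (edgeR adjusted p = 1.3e-06) without it.

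The IL-17 receptors split by chain. *Il17rc* and *Il17ra*, which together bind IL-17A and IL-17F, were called in neither model. *Il17rc* was at 222, 361 and 435 CPM in HR1, 321, 292 and 389 CPM in LM1 and 322, 394 and 383 CPM in LM9, and *Il17ra* at 37.4 to 56.4, 45.4 to 54.8 and 55.4 to 62.5 CPM. *Il17rd*, also known as Sef and an inhibitor of fibroblast growth factor signalling, fell stepwise from 24.6, 14.1 and 14.8 CPM in HR1 to 4.89, 4.98 and 4.34 CPM in LM1 and 0.816, 0.961 and 0.653 CPM in LM9. The fit gave a log2 fold change of −1.91 (SE 0.28, edgeR adjusted p = 0.00139) in LM1, −4.46 (SE 0.31, edgeR adjusted p = 4.1e-05) in LM9 and −2.55 (SE 0.29, edgeR adjusted p = 0.00135) between them. *Il17rb*, the IL-25 receptor chain, was at 7.85, 0.788 and 0.798 CPM in HR1 and at or under 0.114 CPM in the LM tumours. HR1 exceeded LM1 by a count ratio of 116.5 (95% counting interval 39.5 to 568), or 34.6 (95% counting interval 11.35 to 172) without HR1 replicate 1 (edgeR adjusted p = 0.00428 and 0.0005). In LM9 the log2 fold change was −5.48 (SE 1.16, edgeR adjusted p = 0.00624), −3.51 (edgeR adjusted p = 0.00151) without that tumour and −6.08 without LM9 replicate 2.

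*Il3ra*, the alpha chain of the IL-3 receptor, separated LM9 from both other models, at 6.72, 19.8 and 31.1 CPM in HR1, 15.4, 14 and 14.4 CPM in LM1 and 1.20, 1.03 and 0.990 CPM in LM9. The fitted log2 difference was −4.16 (SE 0.51, edgeR adjusted p = 0.00055) against HR1 and −3.76 (SE 0.50, edgeR adjusted p = 0.0022) against LM1, and −0.39 (SE 0.44, edgeR adjusted p = 0.514) in LM1 against HR1. LM9 lay below every tumour of HR1 and LM1. HR1 overlapped LM1 only through replicate 1, without which *Il3ra* was lower in LM1 (−0.79, edgeR adjusted p = 0.00845). *Il10rb*, the chain shared within the IL-10 family, was at 35.9, 43 and 41.5 CPM in HR1, 23.8, 25.1 and 23 CPM in LM1 and 30.6, 29.4 and 31.5 CPM in LM9. Its log2 fold change was small, −0.74 (SE 0.13, edgeR adjusted p = 0.00273) in LM1 and −0.40 (SE 0.13, edgeR adjusted p = 0.0331) in LM9, and the latter was lost in 6 of 9 fits without 1 tumour (up to 0.104). *Il10ra*, which leukocytes are known to express, was at 8.45, 9.84 and 2.42 CPM in HR1, 1.80 to 2.62 CPM in LM1 and 1.14 to 2.77 CPM in LM9, again highest in HR1 replicate 2 and lowest in replicate 3. Its log2 fold change in LM9 was −1.64 (SE 0.55, edgeR adjusted p = 0.0392), lost in 7 of the 9 fits (up to 0.117), and the part of leukocytes in it was not tested. *Il12rb1*, a chain of the IL-12 and IL-23 receptors, was at 0.299, 2.30 and 3.19 CPM in HR1 and at or under 0.54 CPM in the LM tumours (log2 fold change −2.99 in LM1, SE 0.81, edgeR adjusted p = 0.0204, and −2.29 in LM9, SE 0.78, edgeR adjusted p = 0.042), with the calls lost in 3 and 8 of the 9 fits (up to 0.0808 and 0.129). *Il16* was at 26.9, 5.13 and 2.42 CPM in HR1, 6.03 to 6.86 CPM in LM1 and 1.49 to 1.91 CPM in LM9, with a log2 fold change of −2.73 (SE 0.77, edgeR adjusted p = 0.0211) in LM9 that shrank to −1.13 (edgeR adjusted p = 0.0137) without HR1 replicate 1. *Il27ra*, the IL-27 receptor chain, was at 0.166, 1.60 and 0.721 CPM in HR1 and 0.0916 to 0.180 CPM in LM9 (log2 fold change −2.55, SE 0.76, edgeR adjusted p = 0.0258). Without HR1 replicate 2 that of *Il27ra* was −1.66 (edgeR adjusted p = 0.0892). The LM9 calls of *Il16* and *Il27ra* were lost in 3 and 4 of the 9 fits (up to 0.0715 and 0.0893), and 15.3% of the *Il16* exon bases lie opposite *Stard5*. *Il23a*, the IL-23 subunit, was at 0.135 to 0.333 CPM in HR1 and 0.515 to 1.30 CPM in LM9 (log2 fold change 1.96, SE 0.51, edgeR adjusted p = 0.0154), and was not called without LM9 replicate 2 (edgeR adjusted p = 0.065). The other members, *Ccl3*, *Ccl6*, *Il1a*, *Il1r2*, *Il1rl2*, *Il7r*, *Il11ra1* and *Il23r*, were between 0 and 13.4 CPM and were called in neither model with all tumours. Without HR1 replicate 1 *Il7r* was lower in LM1 (log2 fold change −2.03, edgeR adjusted p = 0.0268) and *Il1r2* in LM9 (−1.56, edgeR adjusted p = 0.0131).

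LM9 and LM1 were also compared with each other. Of the 70 members 6 were higher and 6 lower in LM9, 8.57% each, where 11.5% of all tested genes were higher and 10.6% lower. Their median log2 fold change was 0.07 and that of all genes 0.00. The higher members were *Tnf*, *Cxcl3*, *Cxcl1*, *Cxcl10*, *Il15* and *Il33*, and the lower ones *Il24*, *Il3ra*, *Il17rd*, *Il1rn*, *Cxcl13* and *Cxcl15*. The LM9 tumours did not overlap the LM1 tumours for 45 members, 23 higher and 22 lower, against 31.9% and 31.1% of all genes. The count of calls depended on the HR1 tumours, which share the estimate of spread: without HR1 replicate 1 it was 31, with 16 higher and 15 lower, or 22.9% and 21.4% of members against 22.9% and 22.5% of all genes. With only the 6 LM tumours in the fit it was 38. No share of all genes is given for that fit, so the 38 is not read as a trait of the members.

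The receptors of these chemokines were followed from a list of 23, of which 13 were among the listed genes. In LM1 1 was higher and 2 were lower, and in LM9 2 were higher and 4 lower, which became 4 and 2, and 3 and 5, without HR1 replicate 1. With all tumours these were 7.69% and 15.4% of the 13 in LM1 and 15.4% and 30.8% in LM9, against 16.7% and 18.7%, and 20.4% and 21.9%, of all genes. The shares of all genes without HR1 replicate 1 were 26.9% and 26%, and 27.9% and 27.8%. *Cxcr2* and *Cxcr3*, receptors of the ligands that rose, were at 0.0257 to 0.743 CPM in the 9 tumours and were not called. The receptors of the membrane-bound ligands *Cxcl16* and *Cx3cl1* were lower in LM9, as the ligands were. *Cxcr6* was at 79.4, 36.1 and 47.4 CPM in HR1, 3, 2.83 and 3.66 CPM in LM1 and 10.7, 4.62 and 7.92 CPM in LM9 (log2 fold change −4.10 in LM1, SE 0.40, edgeR adjusted p = 0.00025, and −2.81 in LM9, SE 0.38, edgeR adjusted p = 0.00081). *Cx3cr1*, a myeloid marker, was at 44.1, 59 and 10.3 CPM in HR1, 13.6, 11.7 and 14.5 CPM in LM1 and 3.22, 1.76 and 2.48 CPM in LM9 (log2 fold change −1.51 in LM1, SE 0.53, edgeR adjusted p = 0.053, and −3.92 in LM9, SE 0.58, edgeR adjusted p = 0.0013). *Ccr7*, the receptor that guides cells to lymph nodes, rose from 0.466, 0.698 and 1.11 CPM in HR1 to 11.4, 13.7 and 15.4 CPM in LM1 and 29.3, 23.7 and 22.4 CPM in LM9 (log2 fold change 4.14 in LM1, SE 0.32, edgeR adjusted p = 0.00012, and 5.04 in LM9, SE 0.34, edgeR adjusted p = 3.4e-05).

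A list of 36 genes of NF-kappaB, MyD88 and STAT3 signalling, the pathways through which IL-1, TNF and IL-6 receptors act, was measured in full. In LM1 12 were higher and 5 lower, and in LM9 16 were higher and 1 lower, or 33.3% and 13.9%, and 44.4% and 2.78%, against 16.7% and 18.7%, and 20.4% and 21.9%, of all genes. The median log2 fold changes of the list were 0.21 and 0.46. Between the LM models 9 were higher and 3 lower in LM9 (25% and 8.33%, against 11.5% and 10.6% of all genes), with a median of 0.26. Without HR1 replicate 1 the counts were 18 higher and 8 lower in LM1, 19 and 6 in LM9, and 16 and 7 between the LM models, where the shares of all genes also rose, to 26.9% and 26%, 27.9% and 27.8%, and 22.9% and 22.5%. Feedback inhibitors that NF-kappaB or STAT3 are known to induce were among those that rose, and the genes named here were picked from the list. *Nfkb2* was called in neither model with all tumours (log2 fold change 0.98 in LM1, SE 0.41, edgeR adjusted p = 0.094, and 0.42 in LM9, SE 0.41, edgeR adjusted p = 0.43). Without HR1 replicate 1 it was higher in LM1 (0.61, edgeR adjusted p = 0.039). *Relb* was at 34.7 to 43.9 CPM in HR1, 57.1 to 60.7 CPM in LM1 and 36.8 to 41.7 CPM in LM9. *Nfkbia* was at 85.8, 84.7 and 126 CPM in HR1, 377, 501 and 360.3 CPM in LM1 and 448, 517 and 336 CPM in LM9 (log2 fold change 2.06 in LM1, SE 0.24, edgeR adjusted p = 0.00049, and 2.14 in LM9, SE 0.24, edgeR adjusted p = 0.00038). *Tnfaip3* was at 13.1, 33.7 and 45, 106, 187 and 81.1 and 234, 318 and 215 CPM (log2 fold change 2.03 in LM1, SE 0.46, edgeR adjusted p = 0.01, and 3.06 in LM9, SE 0.48, edgeR adjusted p = 0.0017). *Socs3* was at 136, 115 and 97.9, 279.7, 319.9 and 223 and 463, 419.7 and 313 CPM (log2 fold change 1.24 in LM1, SE 0.21, edgeR adjusted p = 0.0025, and 1.78 in LM9, SE 0.21, edgeR adjusted p = 0.00048). *Rela*, a subunit of NF-kappaB itself, was at 110.5 to 168 CPM in HR1, 99.9 to 105 CPM in LM1 and 115 to 118 CPM in LM9 (log2 fold change −0.45 in LM1, SE 0.15, edgeR adjusted p = 0.05, and −0.28 in LM9, SE 0.15, edgeR adjusted p = 0.18). *Ikbkg*, the regulatory subunit of the IkappaB kinase, was lower, at 83.7 to 104, 27.7 to 32.8 and 50 to 56 CPM (log2 fold change −1.64 in LM1, SE 0.13, edgeR adjusted p = 0.00014, and −0.83 in LM9, SE 0.13, edgeR adjusted p = 0.0017).

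Leukocyte markers were lower in the LM models. Of the 20 markers 0 were higher and 11 lower in LM1, and 0 were higher and 15 lower in LM9, or 55% and 75%, against 18.7% and 21.9% of all genes. Their median log2 fold changes were −1.46 and −2.33, and without HR1 replicate 1 10 and 14 were lower and 0 higher. LM9 against LM1 had 4 lower, 1 higher (*Cd68*) and a median of −0.90. HR1 replicate 3 had nearly the LM level of these markers, 314 CPM. It had 6.05 CPM of *Ccl5*, 8.65 CPM of *Cxcl1* and 307 CPM of *Csf1*, each below every LM tumour, as in the other HR1 tumours. These are chosen genes in 1 tumour, and the part of leukocytes in them was not tested. Members that leukocytes are known to express, chosen after their values were seen, did not share 1 order within HR1. *Ccl12*, *Ccl8*, *Cxcl16*, *Il10ra* and *Il21r* were lowest in HR1 replicate 3, whereas *Il2rg* (37.4 CPM), *Il12rb1* (3.19 CPM) and *Il2rb* (2.42 CPM) were highest there. Fibroblast markers, 10 of 10 listed, summed to 23420 to 35250 CPM in HR1, 10400 to 13830 CPM in LM1 and 8976 to 10550 CPM in LM9. Of 10 endothelial markers 9 were listed, and their sum was 11.6 to 39.9 CPM in HR1, 167 to 230.1 CPM in LM1 and 261 to 298 CPM in LM9. That sum was carried by *Cdh5* and *Kdr*, the 2 higher in both models, whereas the median log2 fold change of the 9 was −1.43 in LM1, with 0 lower, and −1.81 in LM9, with 3 lower (4 and 5 lower without HR1 replicate 1), and *Pecam1* was at or under 6.42 CPM. The higher ones were 22.2% of the 9, where 16.7% and 20.4% of all genes were higher. Lower were 0% and 33.3%, against 18.7% and 21.9% of all genes, or 26% and 27.8% without HR1 replicate 1. The part of any of these cell types in the members' differences was not tested.

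**Figure D4:**
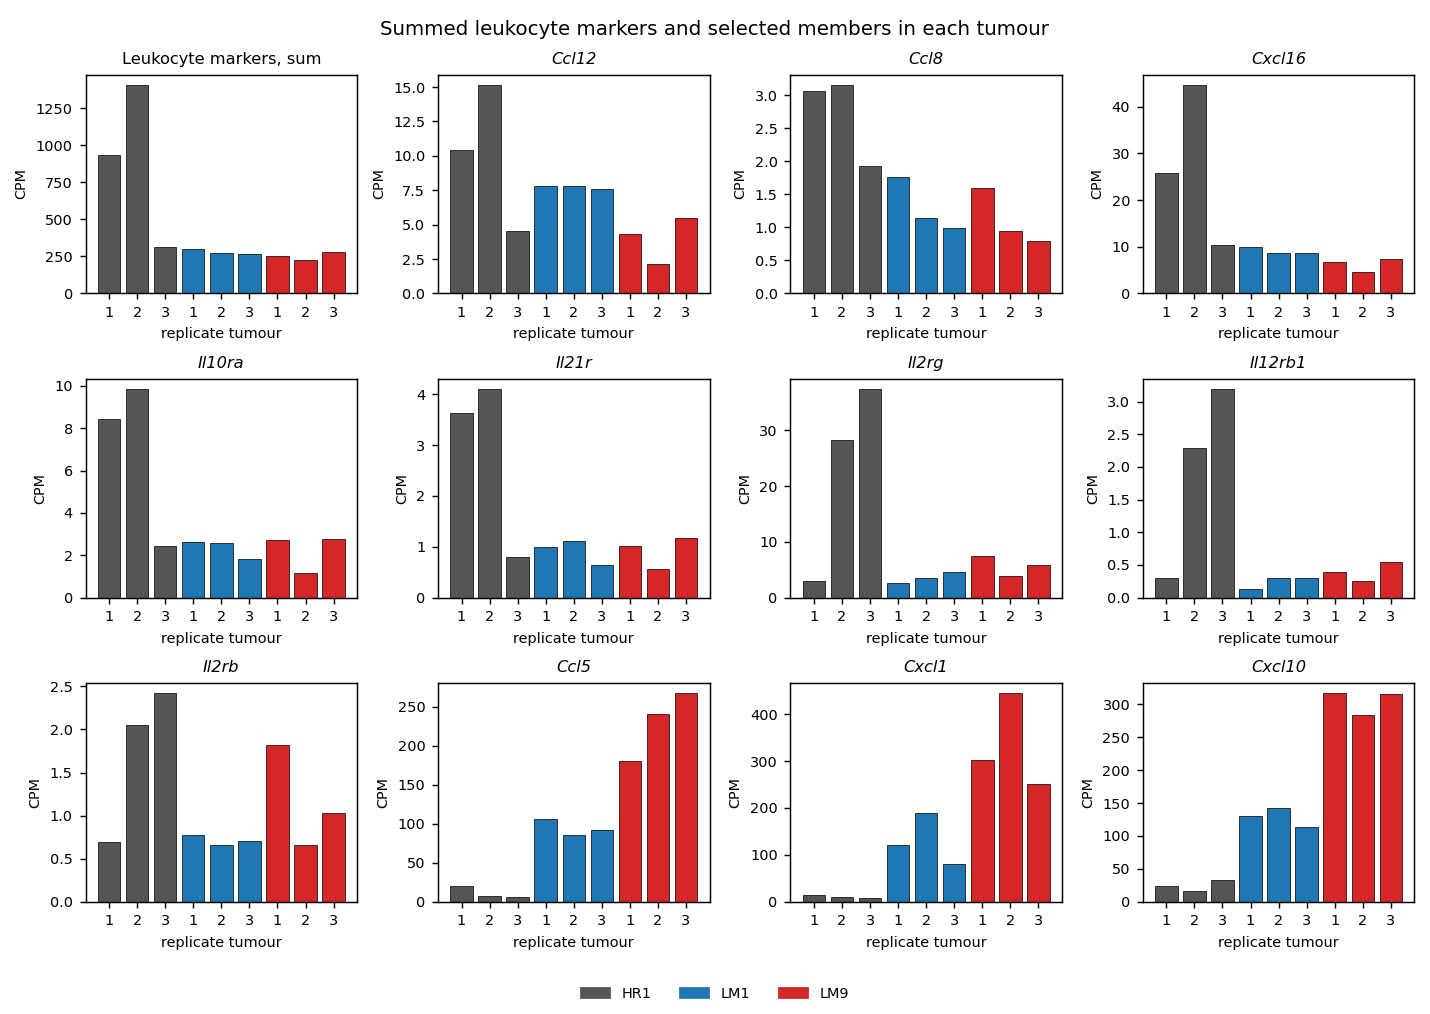
CPM (y axis from 0) in each of the 9 tumours, by replicate number, of the summed 20 leukocyte markers, of 8 members that leukocytes are known to express (*Ccl12*, *Ccl8*, *Cxcl16*, *Il10ra*, *Il21r*, *Il2rg*, *Il12rb1*, *Il2rb*) and of 3 members that rose in LM tumours (*Ccl5*, *Cxcl1*, *Cxcl10*). Bars are single tumours of HR1 (grey), LM1 (blue) and LM9 (red). HR1 replicate 2 was highest for the marker sum (1406 CPM) and for the first 5 members, HR1 replicate 3 was highest for the next 3, and the LM tumours were above every HR1 tumour for the last 3.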

How the data were processed

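RNA of GFP+ cells sorted from 9 tumours was sequenced from stranded mRNA libraries, single-end. As the authors describe, reads were aligned with STAR to mm10 and counted by their 5′ ends over the exons of each gene with QuasR. The deposited values are the authors' raw gene counts, 1 file per tumour, and each lists the same 14108 genes, 14085 with a symbol. Whether counting used strand is not given in the sources used here.

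Groups came from the labels. Counts were scaled by TMM and fitted over all 14086 tested genes (edgeR filterByExpr) in 3 groups with edgeR 4.0.16 (quasi-likelihood test, R 4.3.3, Benjamini-Hochberg adjusted p under 0.05), and members were read from that fit. It was tested on simulated data. Total counts were 32393958 to 46681945, and 3 counts were taken as the floor. Intervals of ratios are exact binomial at 95% and, like the floor, cover counting error only. The tumours are not stated to come from separate cultures, so p-values measure the spread between these tumours. Genes named were the 10 largest called changes per comparison with a group mean of at least 1 CPM, the 10 most abundant, and fixed ligand and receptor systems. Members described beyond these were chosen after their values were seen. Members and lists were chosen with earlier results of these data known. Alternatives were DESeq2 1.42.0, limma-voom (limma 3.58.1), other scalings, other filters, a replicate block, fits of the 6 tumours compared and fits without each tumour. Exon lengths and upstream sequences came from RefSeq GRCm38.p6. No split of CXC ligands by ELR motif was made, since protein sequences were not used here.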

Additional observations from a re-analysis of the deposited data

Results flagged for a closer look

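The LM1 and LM9 changes against HR1 differ by the LM9-to-LM1 contrast, and 12 members passed the edgeR test of that difference. *Tnf* (3.32 on the log2 scale, edgeR adjusted p = 0.00049), *Cxcl3* (4.37, 0.00979), *Cxcl1* (1.35, 0.0257), *Cxcl10* (1.24, 0.00763), *Il15* (1.38, 0.00889) and *Il33* (1.09, 0.0425) were higher in LM9. *Il24* (−6.09, 0.00027), *Il3ra* (−3.76, 0.0022), *Il17rd* (−2.55, 0.00135), *Il1rn* (−1.74, 0.0141), *Cxcl13* (−3.49, 0.0225) and *Cxcl15* (−8.41, 0.0383) were lower. All 3 LM9 tumours lay on that side of all 3 LM1 tumours for each of them. The values of *Cxcl3*, *Cxcl13* and *Cxcl15* depend on the prior count of the fit, since 1 model had 0 to 2 counts in all: the count ratios were 24.3 (95% counting interval 6.39 to 206.5) for *Cxcl3* and 15.4 (95% counting interval 2.37 to 649) in favour of LM1 for *Cxcl13* (fitted −5.31 without LM9 replicate 2), and *Cxcl15* was at least 15.05-fold lower. The calls of *Cxcl1*, *Il1rn*, *Cxcl15*, *Cxcl13* and *Il33* were each lost in some fits without 1 tumour, 4, 4, 6, 4 and 6 of 9.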

How the results depend on the processing

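No called member changed direction under any alternative. Against HR1 the counts of members called, 30 in LM1 and 41 in LM9, stayed within 1.5 times under every alternative, and without 1 tumour they ranged from 23 to 41 and from 29 to 51. The split moved with limma-voom, which called 23 higher and 6 lower members in LM1 and 29 and 9 in LM9, against 19 and 11, and 26 and 15. Shares of all genes called are given only for the fit of all tumours and the fit without HR1 replicate 1. The counts under alternatives therefore show how far member calls depend on the processing, and not whether members differ from other genes. The 12 members called between LM9 and LM1 became 23 with DESeq2, 19 with limma-voom and 38 with only the 6 tumours compared, where 63 members were tested. With all tumours in the edgeR fit 8.57% of members were called each way, against 11.5% and 10.6% of all genes. For the other fits no such share is given. Without 1 tumour that count ranged from 7 (LM9 replicate 1) to 31 (HR1 replicate 1), and it was 20 without HR1 replicate 3. Deviations of same-numbered tumours correlated at r of −0.114 to 0.296, and those of other pairs at −0.301 to 0.313. With 3 tumours a group such values cannot exclude that the numbers pair tumours. With the replicate block 27, 33 and 10 members were called in LM1, LM9 and LM9 against LM1. Over the 44 members that the naming rule took, 736, 753 and 691 values under the alternatives kept their side of the threshold in those comparisons, 19, 13 and 61 gained a call and 25, 15 and 27 lost it. Calls of other members were lost too: of all 70, those called under every alternative were 16 higher and 5 lower in LM1, 20 and 7 in LM9, and 4 and 3 between LM9 and LM1. The count of calls held both with and without HR1 replicate 1 (30 and 41) and the count ratios were chosen after seeing the data. Depth limited *Cxcl3*, *Csf3*, *Ccl20*, *Cxcl13*, *Il17rb* and *Il24* in the models where they had at most 3 counts.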

Other observations

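Receptor chains and inhibitors that the symbol rule did not take were read from a list of 20, of which 19 were listed. In LM1 2 were higher and 4 lower, and in LM9 3 were higher and 8 lower, which became 5 and 4, and 4 and 9, without HR1 replicate 1. With all tumours these were 10.5% and 21.1%, and 15.8% and 42.1%, against 16.7% and 18.7%, and 20.4% and 21.9%, of all genes. The shares of all genes without HR1 replicate 1 were 26.9% and 26%, and 27.9% and 27.8%. *Il18bp*, the secreted inhibitor of IL-18, was at 4.82, 2.57 and 2.01 CPM in HR1, 11.2, 10.4 and 10.1 CPM in LM1 and 27.7, 19.3 and 33.7 CPM in LM9, with a log2 fold change of 1.76 (SE 0.34, edgeR adjusted p = 0.0049) in LM1 and 3.11 (SE 0.36, edgeR adjusted p = 0.00042) in LM9. *Csf1r*, the receptor of the *Csf1* and *Il34* products and a macrophage marker, was at 66.1, 74.7 and 17 CPM in HR1, 20.6, 21.1 and 18.2 CPM in LM1 and 11.7, 7.14 and 10.4 CPM in LM9, with a log2 fold change of −1.40 (SE 0.47, edgeR adjusted p = 0.044) in LM1 and −2.43 (SE 0.48, edgeR adjusted p = 0.0048) in LM9. Both genes were chosen after their values were seen.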
